A study of Mus musculus with 9 samples.

Results

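The 36 genes described here encode proteins that carry a cell through its division cycle, from the cyclins of G1 to the motors of the mitotic spindle. They were taken by symbol from a fixed list of cell cycle and mitosis genes, and all 36 were found among the 21950 genes of the mRNA tables. They fell into 3 roles: 9 G1 cyclins, cyclin-dependent kinases and E2f1, 12 genes of replication licensing and DNA synthesis, and 15 genes of G2 and mitosis. Their levels were compared in the renal cortex of 3 groups of 15-week-old male mice on the BKS background, with 3 mice and 1 library per mouse in each group. The control group was nondiabetic db/m littermates given vehicle. The dbdb group was db/db mice, which carry the leptin receptor mutation db on both alleles and develop type 2 diabetes, and it received the same vehicle. The dbR group was db/db mice given 20 mg/kg/day of rosiglitazone, a PPARγ agonist, by gavage for 8 weeks from 7 weeks of age. Control mice therefore differed from both other groups in genotype, and no control mice given rosiglitazone were analysed here.

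In the textbook scheme, D-type cyclins bind Cdk4 or Cdk6 in G1, and cyclin E with Cdk2 then drives entry into S phase through E2F factors. The MCM helicase is loaded at origins by Cdc6 and Cdt1, and Pcna, ribonucleotide reductase and thymidylate synthase serve the copying of DNA. Cyclins A and B with Cdk1 drive G2 and mitosis, when the kinesins, aurora kinases and checkpoint proteins build and police the spindle. Most tubule cells of the adult kidney are quiescent, so transcripts of mitosis are rare in whole cortex, whereas D-type cyclins and Pcna are also transcribed outside of division.

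Promoter sequences are shown because the 2 later roles are known to be switched by different DNA elements, and the sequences show how the members differ. RefSeq windows of 300 bases, from 250 before to 50 after each start site on GRCm38.p6, were matched by symbol to 30 of the 36 genes and held 32 start sites. Ccnd1, Ccnd2, Ccne2, Mcm4, Ccna2 and Aurkb were not matched. Each line below gives the 150 bases before the start, 5′ to 3′ on the gene's own strand. Capitals mark a CCAAT box (CCAAT), the cell cycle homology region or CHR (TTTGAA), or an E2F word (TTTGGCGC, TTTGCCGC, TTTCGCGC or TTTCCCGC), read on either strand. In the Mcm6 line 2 E2F words overlap and form 1 run of capitals.
Kif11 promoter, chr19:37376232-37376381, plus strand: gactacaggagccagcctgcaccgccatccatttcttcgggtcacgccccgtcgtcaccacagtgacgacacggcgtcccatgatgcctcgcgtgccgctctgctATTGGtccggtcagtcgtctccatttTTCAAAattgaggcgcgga
Cdk1 promoter, chr10:69352913-69353062, minus strand: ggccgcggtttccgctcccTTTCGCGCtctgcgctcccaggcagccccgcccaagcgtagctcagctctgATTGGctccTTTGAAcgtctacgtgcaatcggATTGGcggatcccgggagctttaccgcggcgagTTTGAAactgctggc
Top2a promoter, chr11:99024190-99024339, minus strand: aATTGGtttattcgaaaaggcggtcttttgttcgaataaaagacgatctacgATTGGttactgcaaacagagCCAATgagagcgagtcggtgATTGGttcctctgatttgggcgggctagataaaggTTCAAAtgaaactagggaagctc
Mki67 promoter, chr7:135716380-135716529, minus strand: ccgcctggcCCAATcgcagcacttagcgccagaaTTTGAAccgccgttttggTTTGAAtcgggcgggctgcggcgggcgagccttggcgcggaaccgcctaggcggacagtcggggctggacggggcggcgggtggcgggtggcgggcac
Mcm6 promoter, chr1:128359706-128359855, minus strand: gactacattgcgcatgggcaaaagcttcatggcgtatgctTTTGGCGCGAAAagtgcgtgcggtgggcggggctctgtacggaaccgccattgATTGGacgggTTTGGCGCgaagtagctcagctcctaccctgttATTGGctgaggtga

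The first 4 lines belong to genes of G2 and mitosis and each joins a CCAAT box with a CHR, and the Cdk1 line also holds an E2F word. Both elements stood in 9 of the 13 windows of G2 and mitosis members (69.2%), against 4.87% of the 13913 windows of all genes tested. The CHR alone stood in the same 9 windows and in 12.2% of all windows, and the CCAAT box alone in 11 of 13 (84.6%) and in 37.2%. The Mcm6 line holds E2F words beside CCAAT boxes and no CHR. E2F words stood in 6 of the 12 windows of replication members (50%), in 1 of 13 of G2 and mitosis members (7.69%) and in 3.52% of all windows. A CHR, with a CCAAT box, stood in 1 of the 12 replication windows (8.33%). Among the 7 windows of G1 members, 2 held a CCAAT box, 1 an E2F word and none a CHR. These matches describe letters in a window, and binding was not measured.

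The estimated depth, read from the smallest steps of FPKM, was 24800000 to 30800000 fragments per library. Mitochondrial transcripts took 26.9% to 32.8% of the summed FPKM. FPKM counts fragments per kilobase of transcript, scaled to the mapped fragments of the library, so levels of different genes can be set side by side. Proximal tubule markers summed to 2286 to 2895 FPKM over the 9 libraries, as the label renal cortex implies. The 3 adrenal cortex markers summed to 0.597 to 0.943 FPKM in control, 1.10 to 1.37 FPKM in dbdb and 0.698 to 1.26 FPKM in dbR. Of these, Cyp11b1 was below 0.01 FPKM in every library, and Star, the 1 that could be tested, was not called in dbdb against control (log2 fold change 0.62, limma adjusted p = 0.0647). The levels of the members spanned a wide range. G1 members ran from a mean of 0.247 FPKM for Ccne1 to 153.6 FPKM for Ccnd1, with a median of 4.50. Replication members ran from 0.187 FPKM for Cdc6 to 25.8 FPKM for Pcna, with a median of 3.82. G2 and mitosis members had a median of 0.767 FPKM, and 8 of the 15 were below 1 FPKM. At this depth the lowest value, Bub1 in dbdb replicate 1, corresponded to about 1 fragment, and Mki67 to between 173 and 740 fragments. Each group held 3 mice, so the exact permutation test of a single value could not go below p = 0.1. The test used was limma on log2(FPKM + 0.1), fitted to all 14537 genes with a mean of at least 0.1 FPKM. All 36 members passed this filter, and a gene was called at an adjusted p under 0.05. A fold change on this scale understates the change of genes near or below 0.1 FPKM.

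The comparison of dbdb with control asks how the diabetic cortex differs from that of littermates. Of the 36 members, 9 were called (25%), and the share over all genes tested was 26.4%. Ccnd1, Ccnd3 and Rrm1 were higher in dbdb, and Ccnd2, Cdk4, Cdk6, Mcm6, Mcm7 and Kif11 were lower. The median log2 fold change was -0.14 over the 36 members and -0.0030 over all genes. The libraries of dbdb and control did not overlap for 10 members (27.8%), 4 of them higher and 6 lower, against 42.4% of all genes (21.2% in each direction). At an unadjusted p under 0.05 there were 13 members (36.1%), against 38.8% of all genes. The share of called members was thus near that of genes in general. Leaving out mitochondrial transcripts and scaling the rest to the same sum moved the median of all genes to 0.15. Cdk4, Mcm6, Mcm7 and Kif11 were then lower than that median but not called, and 6 members were called, 4 higher and 2 lower.

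Among the D-type cyclins, the 3 paralogues did not move together. Ccnd1 (ENSMUSG00000070348, chr7:144929931-144939925, minus strand, GRCm38), which encodes cyclin D1, was the most abundant member. Its level was 118, 126 and 117 FPKM in control, 183, 190 and 235 FPKM in dbdb, and 130, 127 and 157 FPKM in dbR. Each dbdb library was above each library of the other 2 groups, and dbR lay just above control. Ccnd1 was 1.68-fold higher in dbdb than in control (log2 fold change 0.75, SE 0.11, limma adjusted p = 0.000921). Ccnd2 (chr6:127125162-127152193, minus strand), the cyclin D2 gene, went the other way. Its level was 5.52, 5.10 and 4.52 FPKM in control, 2.82, 3.57 and 3.63 FPKM in dbdb, and 4.68, 5.04 and 5.15 FPKM in dbR. The dbdb libraries lay below all others, and control and dbR overlapped. Ccnd2 was 1.50-fold lower in dbdb than in control (log2 fold change -0.59, SE 0.12, limma adjusted p = 0.00528). Ccnd3 (chr17:47505051-47599691, plus strand), the cyclin D3 gene, measured 25.4, 25.7 and 27.6 FPKM in control, 35.6, 34.0 and 33.5 FPKM in dbdb, and 32.3, 35.4 and 35.4 FPKM in dbR. Both diabetic groups lay above control and overlapped each other. Ccnd3 was 1.31-fold higher in dbdb than in control (log2 fold change 0.39, SE 0.061, limma adjusted p = 0.00144), and it was not called when only the highest of its 16 transcripts was used (adjusted p = 0.0788).

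The balance of the 3 cyclins was also taken within each library, a measure chosen after the levels were seen. The summed FPKM of the D-type cyclins reached 151.6 ± 4.81 in control, against 240.6 ± 27.7 in dbdb and 177.0 ± 17.5 in dbR (mean ± SD, n = 3). Ccnd1 made up 79.3% ± 0.967 of this sum in control, 84.2% ± 1.95 in dbdb and 77.7% ± 1.79 in dbR. Ccnd2 made up 3.33% ± 0.351, 1.39% ± 0.156 and 2.81% ± 0.198. Ccnd3 made up 17.3% ± 1.08, 14.4% ± 1.94 and 19.5% ± 1.60, so its share was lowest in dbdb although its level was called higher there than in control. These shares do not depend on scaling between libraries, and for each of the 3 cyclins they did not overlap between dbdb and the other 2 groups. Each of these 6 differences had the smallest exact permutation p of 0.1 (two-sided), which cannot pass 0.05. The shares within a library are tied, so a larger share of Ccnd1 leaves less for Ccnd2 and Ccnd3.

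The kinase partners of the D-type cyclins were lower in dbdb. Cdk6 (chr5:3341485-3531008, plus strand) measured 8.74, 8.25 and 9.45 FPKM in control, 6.54, 5.86 and 5.36 FPKM in dbdb, and 7.56, 5.75 and 6.43 FPKM in dbR. All control libraries were above all diabetic ones. Cdk6 was 1.48-fold lower in dbdb than in control (log2 fold change -0.57, SE 0.11, limma adjusted p = 0.00536). Cdk4 (chr10:127063534-127067920, plus strand) measured 36.2, 36.1 and 34.8 FPKM in control, 33.4, 31.1 and 30.5 FPKM in dbdb, and 32.9, 34.6 and 32.6 FPKM in dbR. Control and dbdb did not overlap, but the difference was small (log2 fold change -0.17, SE 0.055, limma adjusted p = 0.0445), and it was not called under 15 of 20 alternatives. The other 4 G1 members, Ccne1, Ccne2, Cdk2 and E2f1, were not called, with log2 fold changes between -0.42 and 0.14. E2f1, the factor that drives the S phase genes, measured 1.03 ± 0.160 FPKM in control, 0.970 ± 0.256 in dbdb and 1.05 ± 0.0151 in dbR (SD, n = 3). Of the 9 G1 members, 5 were called (55.6%, against 26.4% of all genes), 2 higher and 3 lower (13.1% and 13.4% of all genes), and their median log2 fold change was -0.096. The median was 0.11 without dbdb replicate 1, 0.20 with the highest transcript of each gene and 0.048 with mitochondrial transcripts left out. Its sign was therefore not stable.

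**Figure D1:**
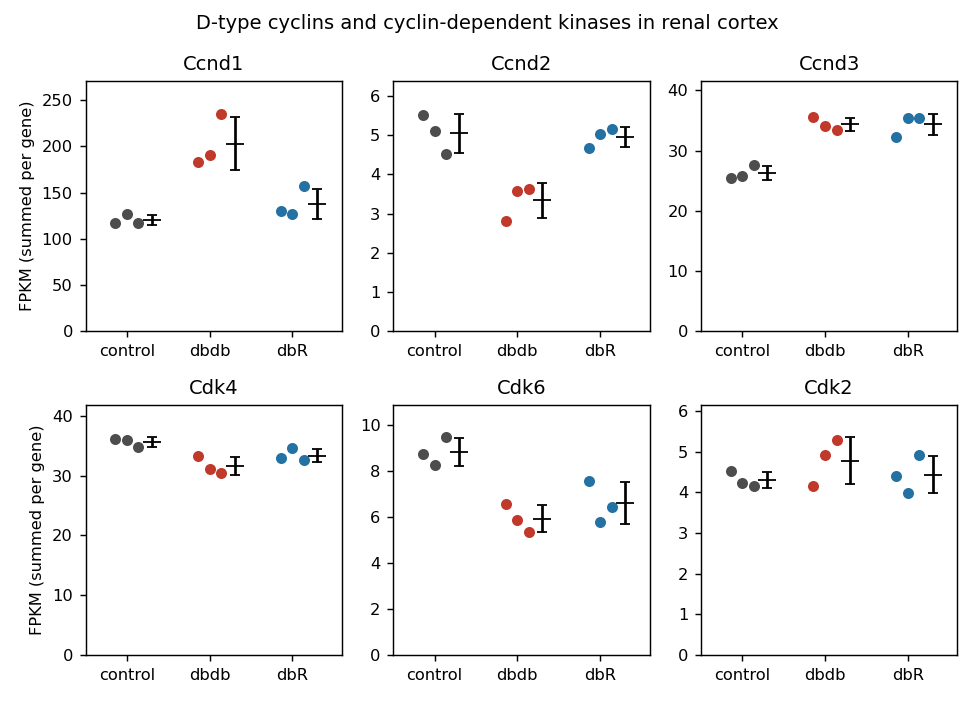
Level in FPKM, summed per gene, of the D-type cyclins and of 3 cyclin-dependent kinases in each of the 3 control, 3 dbdb and 3 dbR libraries. Points are libraries in replicate order, and the black bar beside them is the mean ± SD. The dbdb libraries stand above the other groups for Ccnd1 (183 to 235 FPKM) and below them for Ccnd2 (2.82 to 3.63 FPKM), and both diabetic groups stand above control for Ccnd3 and below it for Cdk6.

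Of the 12 replication members, 3 were called in dbdb against control (25%), near the 26.4% of all genes, and the median log2 fold change of the 12 was 0.18. That median was 0.11 without control replicate 3 and 0.12 without dbdb replicate 3. With mitochondrial transcripts left out it was 0.34, and that of all genes 0.15. The 3 called genes encode subunits of the MCM helicase and of ribonucleotide reductase. Rrm1 (chr7:102441695-102469771, plus strand), the large subunit of the reductase that makes deoxyribonucleotides, measured 5.12, 5.37 and 4.74 FPKM in control, 6.34, 7.21 and 6.48 FPKM in dbdb, and 6.28, 7.25 and 6.69 FPKM in dbR. Both diabetic groups lay above control without overlap. Rrm1 was 1.31-fold higher in dbdb (log2 fold change 0.39, SE 0.088, limma adjusted p = 0.00981). Its partner Rrm2, the subunit that is made in S phase, was 1.67 ± 0.552, 1.99 ± 0.401 and 2.02 ± 0.439 FPKM in control, dbdb and dbR and was not called.

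The 6 subunits of the MCM2 to MCM7 ring did not move as 1 group. Mcm6 (chr1:128331590-128359664, minus strand), whose promoter is printed above, measured 7.40, 7.43 and 6.99 FPKM in control, 4.34, 4.16 and 6.08 FPKM in dbdb, and 5.33, 5.20 and 4.92 FPKM in dbR. Each control library was above each diabetic one, and dbdb replicate 3 was the highest of the diabetic libraries. Mcm6 was 1.51-fold lower in dbdb than in control (log2 fold change -0.59, SE 0.13, limma adjusted p = 0.00817). Mcm7 (chr5:138164583-138172422, minus strand) measured 9.60, 9.96 and 9.95 FPKM in control, 6.57, 7.17 and 8.32 FPKM in dbdb, and 7.91, 8.83 and 8.55 FPKM in dbR. The control libraries were again above all others. Mcm7 was 1.34-fold lower in dbdb (log2 fold change -0.42, SE 0.090, limma adjusted p = 0.00763), and it was not called when only its highest transcript was used (adjusted p = 0.13). Mcm2, Mcm3, Mcm4 and Mcm5 had log2 fold changes of 0.12 to 0.32 and were not called. The summed FPKM of the 6 subunits came to 27.5 ± 1.09 in control, 24.2 ± 3.74 in dbdb and 26.2 ± 1.08 in dbR (SD, n = 3).

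Within this sum the composition differed. Mcm6 made up 26.5% ± 0.196 of the 6 in control, 20.0% ± 2.20 in dbdb and 19.7% ± 0.807 in dbR. Mcm7 made up 35.9% ± 1.84, 30.5% ± 1.11 and 32.2% ± 1.66. Mcm2 made up 14.4% ± 0.421, 18.9% ± 1.20 and 16.8% ± 0.0845. For these 3 subunits control did not overlap dbdb or dbR, and each difference had the smallest exact permutation p of 0.1 (two-sided). The share of Mcm4 and that of Mcm5 was also higher in dbdb with p = 0.1 by the exact permutation test, and that of Mcm3 had p = 0.2. Shares are tied, so lower shares of Mcm6 and Mcm7 raise the other shares, and the levels of Mcm2 to Mcm5 were not called. Over the 27 comparisons of shares of D-type cyclins and MCM subunits, the smallest Benjamini-Hochberg adjusted exact permutation p was 0.142.

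**Figure D2:**
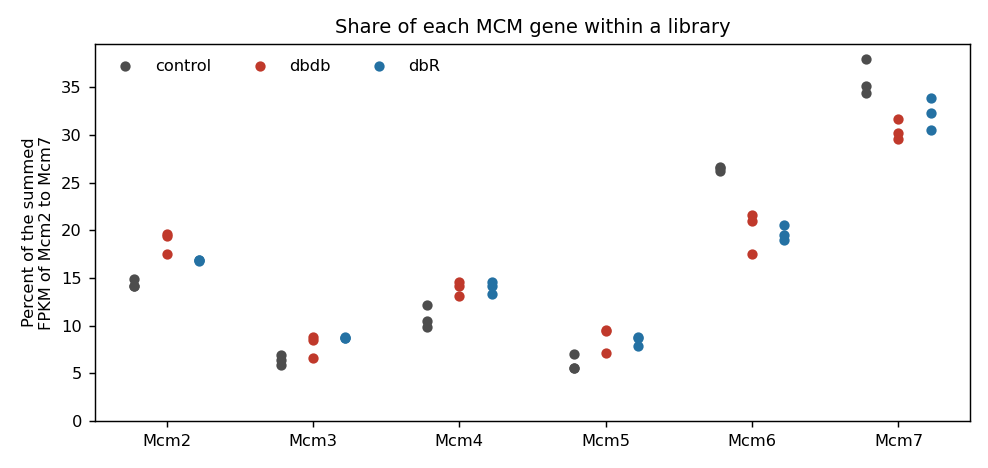
Percent of the summed FPKM of Mcm2 to Mcm7 taken by each subunit in each library (points; grey control, red dbdb, blue dbR). The 3 control libraries lie at 26.3% to 26.6% for Mcm6, above the 17.5% to 21.6% of the diabetic libraries, and at 14.1% to 14.9% for Mcm2, below the 16.7% to 19.7% of the diabetic libraries.

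Pcna (chr2:132249162-132253314, minus strand), the sliding clamp of the replicative polymerases and the most abundant replication member, measured 25.3, 24.9 and 23.8 FPKM in control, 22.9, 25.1 and 25.8 FPKM in dbdb, and 25.6, 29.1 and 29.2 FPKM in dbR. Control and dbdb overlapped, and their log2 fold change was -0.0045 (95% interval -0.16 to 0.15). Cdt1 was the other replication member without overlap between dbdb and control, at 2.16 ± 0.122 and 2.76 ± 0.345 FPKM (limma adjusted p = 0.0759). Cdc6 and Tyms, thymidylate synthase, were not called.

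Most of the 15 genes of G2 and mitosis were lower in dbdb by mean, with few calls. For 14 of the 15, all but Nusap1, the mean of log2 values was lower in dbdb than in control and lower than in dbR. Both orderings use the same 3 dbdb libraries, and the share of all genes with both was not taken. The median log2 fold change from control to dbdb was -0.46. It was -0.20 on log2(FPKM + 1) and -0.55 on log2(FPKM + 0.01). Of the 15, 1 was called in dbdb against control (6.67%), against 26.4% of all genes (13.4% lower). Kif11 (chr19:37376403-37421859, plus strand), the kinesin that pushes the spindle poles apart, measured 0.783, 0.795 and 0.494 FPKM in control, 0.281, 0.321 and 0.498 FPKM in dbdb, and 0.711, 0.611 and 0.701 FPKM in dbR. The lowest were dbdb replicates 1 and 2, and dbdb replicate 3 lay just above control replicate 3, so the groups overlapped. Kif11 was 1.70-fold lower in dbdb (log2 fold change -0.76, SE 0.23, limma adjusted p = 0.0337), and it was not called under 7 of 19 alternatives, among them leaving out dbdb replicate 1 or 2 or control replicate 1 or 2.

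Mki67 (chr7:135689784-135716361, minus strand), which encodes the proliferation antigen Ki-67, measured 1.90, 2.099 and 0.888 FPKM in control, 0.672, 0.848 and 1.27 FPKM in dbdb, and 2.39, 1.59 and 1.98 FPKM in dbR. Control replicate 3 lay within the dbdb range, and the dbR libraries were above all dbdb libraries. The log2 fold change from control to dbdb was -0.71 (95% interval -1.40 to -0.0098, limma adjusted p = 0.124). Top2a (chr11:98992943-99024189, minus strand), topoisomerase IIα, which untangles sister chromatids, measured 1.61, 1.68 and 0.860 FPKM in control, 0.613, 0.827 and 1.12 FPKM in dbdb, and 1.79, 1.41 and 0.985 FPKM in dbR. The groups overlapped through control replicate 3 and dbR replicate 3. Its log2 fold change from control to dbdb was -0.62 (95% interval -1.28 to 0.039, limma adjusted p = 0.151).

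Cdk1 (chr10:69335146-69352938, minus strand), the kinase of mitotic entry, measured 1.54, 1.35 and 0.834 FPKM in control, 0.731, 0.607 and 1.01 FPKM in dbdb, and 2.08, 0.848 and 1.51 FPKM in dbR. The dbdb and control libraries overlapped (log2 fold change -0.59, limma adjusted p = 0.201). Its partner Ccnb1 (chr13:100778650-100786570, minus strand), cyclin B1, measured 0.577, 0.621 and 0.611 FPKM in control, 0.315, 0.447 and 0.488 FPKM in dbdb, and 0.650, 0.587 and 0.837 FPKM in dbR. It was the G2 and mitosis member without overlap between dbdb and control in summed FPKM (log2 fold change -0.46). Its adjusted p in the limma test was 0.105. The highest of its 3 transcripts alone overlapped, at 0.510, 0.582 and 0.283 FPKM in control and 0.225, 0.447 and 0.455 FPKM in dbdb. Nusap1 (chr2:119618298-119651244, plus strand), a spindle microtubule protein and the most abundant of the 15, measured 2.51, 2.26 and 2.18 FPKM in control, 3.07, 2.00 and 2.56 FPKM in dbdb, and 2.04, 1.97 and 1.89 FPKM in dbR. Its groups overlapped between control and dbdb, and it stood opposite to the other 14. The remaining 9 members of this role had log2 fold changes of -0.79 to -0.048 and were not called. They were the cyclins Ccna2 and Ccnb2, the checkpoint genes Bub1 and Bub1b, Cdc20, the kinases Plk1, Aurka and Aurkb, and Birc5, which encodes survivin.

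Single libraries weighed on these low transcripts. Control replicate 3 was the lowest control library for 13 of the 15 members, and dbR replicate 1 was the highest dbR library for 13 of the 15. The median over the 15 of log2 values relative to the control mean was 0.18, 0.28 and -0.35 in the control libraries, -0.65, -0.44 and -0.23 in dbdb, and 0.31, -0.036 and 0.016 in dbR. Thus control replicate 3 lay within the range of dbdb, while no dbR library did. Without control replicate 3, 4 of the 15 were called lower in dbdb, and the median log2 fold change was -0.61, in a fit that called 2761 of all 14537 genes, 1409 of them lower. These were Kif11, Mki67 (-1.07, limma adjusted p = 0.0177), Top2a (-0.91, limma adjusted p = 0.0469) and Cdc20 (-0.72, limma adjusted p = 0.0486). Without dbdb replicate 1 or 2, or control replicate 1 or 2, no member of this role was called, and the median was -0.44 to -0.31. The depth of control replicate 3 was about 27700000 fragments, inside the range of the other libraries.

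**Figure D3:**
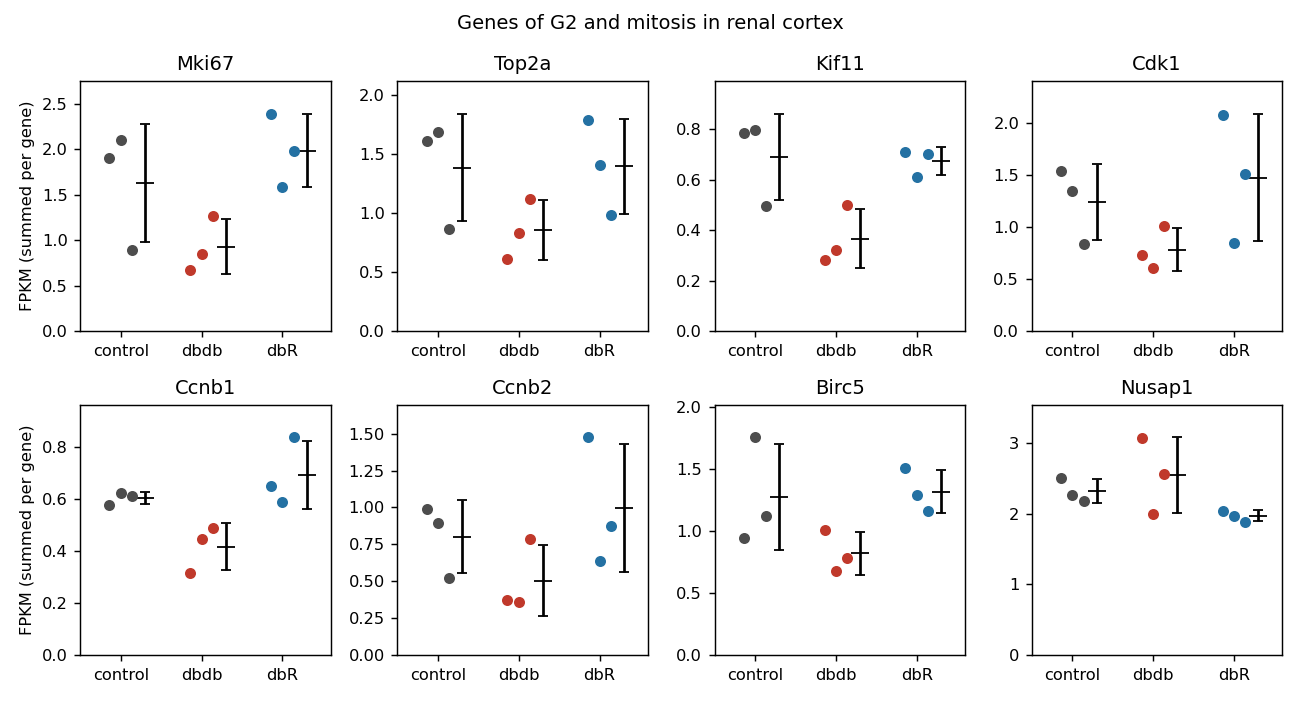
Level in FPKM of 8 genes of G2 and mitosis in each control, dbdb and dbR library. Points are libraries in replicate order, and the black bar is the mean ± SD (n = 3). In 7 of the panels the dbdb mean is the lowest of the 3, Nusap1 is the exception, and the third control point lies near the dbdb points for Mki67 (0.888 FPKM), Top2a (0.860 FPKM) and Kif11 (0.494 FPKM).

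The comparison of dbR with dbdb asks what rosiglitazone changed in diabetic mice. It shares the dbdb libraries with the comparison above, so a dbdb library that is low for a gene enters both with opposite sign. None of the 36 members was called by limma, and 0.743% of all genes tested were. At an unadjusted p under 0.05 there were 11 members (30.6%), 9 higher and 2 lower in dbR, against 17.5% of all genes (9.43% higher and 8.05% lower). Groups did not overlap for 8 members (22.2%), 7 higher and 1 lower, against 22.7% of all genes (10.7% higher and 11.9% lower). The median log2 fold change was 0.16 over the members and -0.0022 over all genes.

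The 2 members nearest to a call were again cyclins D1 and D2. Ccnd1 had a log2 fold change of -0.56 (95% interval -0.79 to -0.32, limma adjusted p = 0.0516) and Ccnd2 of 0.56 (95% interval 0.30 to 0.82, limma adjusted p = 0.0568). For both genes the dbR and dbdb libraries listed above did not overlap. Both were called with a filter at a mean of 1 FPKM, with 75th percentile scaling and with quantile normalization. Ccnd1 was also called with mitochondrial transcripts left out. For Ccnd3 the difference was -0.0022 (95% interval -0.14 to 0.13).

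Of the 15 genes of G2 and mitosis, 14 had a positive log2 fold change in dbR, with a median of 0.55. The median was 0.19 on log2(FPKM + 1) and 0.69 on log2(FPKM + 0.01), with 14 positive in each. In the main fit the largest log2 fold change was that of Mki67, 1.04 (95% interval 0.34 to 1.74, limma adjusted p = 0.137), or 2.06-fold. Kif11 had 0.76 (limma adjusted p = 0.139), and Ccnb1 had 0.62 (limma adjusted p = 0.147). Mki67, Kif11, Ccnb1, Birc5 and Bub1b were without overlap, with each dbR library above each dbdb library. For the highest transcript of Ccnb1 alone the groups overlapped, with dbR replicate 3 at 0.252 FPKM. Nusap1 was lower in dbR by mean, at -0.34 (limma adjusted p = 0.272). Without dbR replicate 1 the median of the 15 was 0.46 and 13 were positive, and none was called. The replication members had a median of 0.056, none was without overlap, and Pcna had 0.18 (95% interval 0.026 to 0.34, limma adjusted p = 0.221). The median of these members was 0.13 without dbdb replicate 3 and 0.028 without dbdb replicate 1. It was -0.0054 with mitochondrial transcripts left out, where the median of all genes was -0.063.

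The comparison of dbR with control shows how far treated diabetic mice were from nondiabetic littermates, and it shares libraries with both comparisons above. Of the 36 members, 4 were called (11.1%), against 24.1% of all genes, and 13 were without overlap (36.1%), 8 higher and 5 lower, against 41.9% (20.8% higher and 21.1% lower). At an unadjusted p under 0.05 there were 9 members (25%), 6 higher and 3 lower, against 36.8% of all genes (18.6% higher and 18.2% lower). Ccnd3 was 1.31-fold higher (log2 fold change 0.39, limma adjusted p = 0.00161) and Rrm1 1.32-fold higher (0.40, limma adjusted p = 0.00909). Cdk6 was 1.34-fold lower (-0.42, limma adjusted p = 0.0227) and Mcm6 1.40-fold lower (-0.49, limma adjusted p = 0.0212). Both lower calls were lost without control replicate 1, dbR replicate 2 or dbR replicate 3 and with mitochondrial transcripts left out, that of Cdk6 also without control replicate 3 and that of Mcm6 also without control replicate 2. The limma adjusted p then rose to at most 0.0791 for Cdk6 and 0.0873 for Mcm6. For Ccnd1 the log2 fold change was 0.19 (95% interval -0.049 to 0.43) and for Ccnd2 -0.023 (95% interval -0.28 to 0.24). Among the 12 replication members, 7 had an unadjusted p under 0.05 by limma (58.3%, against 36.8% of all genes), 5 higher and 2 lower. The median of the 12 was 0.27, and it was 0.18 without control replicate 3 and 0.19 without dbR replicate 1. Of the genes of G2 and mitosis none was called and none had an unadjusted p under 0.05 in the limma test. Their median was 0.080, and it was -0.048 without control replicate 3 and -0.047 without dbR replicate 1.

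**Figure D4:**
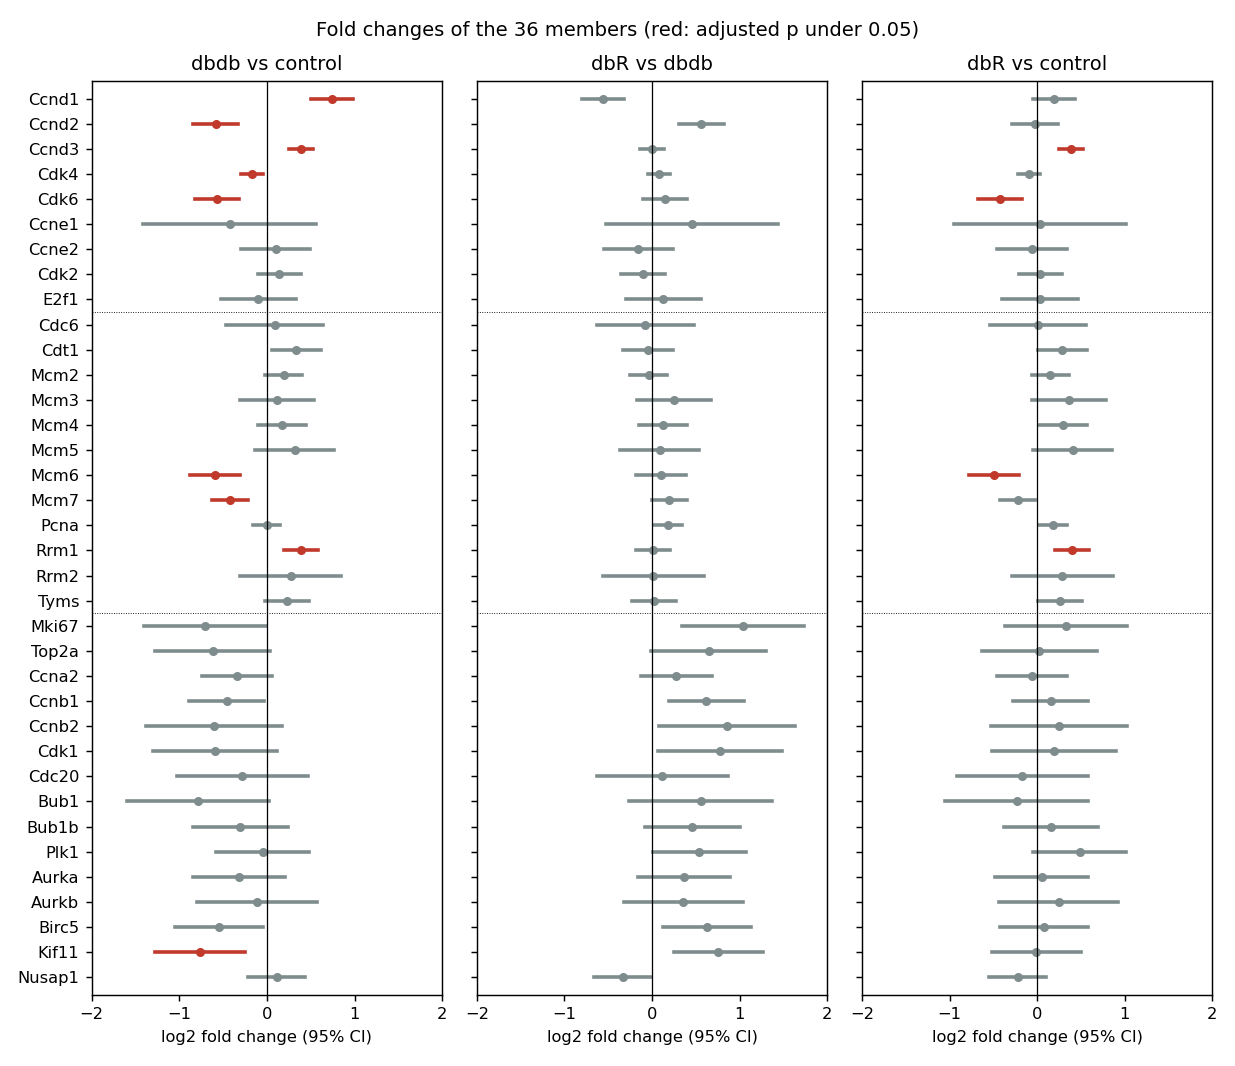
Log2 fold change with its 95% interval (limma) for the 36 members in dbdb against control, dbR against dbdb and dbR against control. Dotted lines separate G1, replication, and G2 and mitosis members, and red marks an adjusted p under 0.05. Most points of G2 and mitosis members sit left of 0 in the first panel and right of 0 in the middle panel, and their intervals in the last panel each include 0.

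Genes of the same processes outside the 36 were taken from further lists. These were drawn up from textbook knowledge, but with earlier results of these data known. Among 57 other mitosis genes tested, 15 were called in dbdb against control (26.3%), 13 lower and 2 higher, and the share over all genes was 26.4%. The list had a median log2 fold change of -0.41. The largest were Kif20b (-1.93), a kinesin of cytokinesis, Cdca2 (-1.29), a phosphatase regulator on anaphase chromatin, Ect2 (-1.28), which activates RhoA for the cleavage furrow, and Kif20a (-1.07), another kinesin of the midzone. Kif20b (chr19:34922361-34975745, plus strand) measured 4.12, 1.76 and 2.40 FPKM in control, 0.539, 0.512 and 0.817 FPKM in dbdb, and 0.863, 0.872 and 0.660 FPKM in dbR. All diabetic libraries were below all control libraries, with a limma adjusted p of 0.00106 in dbdb and 0.00314 in dbR (-1.60). Spc24 (0.97), of the kinetochore, and Cdc25b (0.52), a phosphatase that activates Cdk1, were called higher in dbdb. Of the 15 calls, those of Kif20b, Spc24, Nek2 and Cks2 held under each alternative run, and leaving out 1 library gave 7 to 17 calls, fewest without control replicate 2 or dbdb replicate 1 and most without control replicate 3. In dbR against dbdb none of the 57 was called by limma, 11 had an unadjusted p under 0.05 (19.3%, against 17.5% of all genes, 9.43% higher), each higher in dbR, and the median was 0.33. In dbR against control 6 were called (10.5%, against 24.1% of all genes), 2 higher and 4 lower, with a median of -0.0096, and the calls of Kif20b and Nek2 held under each alternative run. Leaving out 1 library gave 2 to 7 calls there, 2 without control replicate 3 and 3 without dbR replicate 2. A CHR stood in 36 of 50 windows of this list (72%).

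Of 39 other replication genes, 6 were called in dbdb against control (15.4%, against 26.4% of all genes), 3 higher and 3 lower, and leaving out 1 library gave 1 to 5 calls, fewest without control replicate 3. They were led by Pole2 (-0.86), a subunit of polymerase ε, Wdhd1 (0.52), a replisome scaffold, Rfc3 (0.50), of the clamp loader, and Tk1 (0.38), thymidine kinase. The call of Rfc3 held under each alternative run and the other 5 did not, and the median log2 fold change of the list was -0.0086. None was called in dbR against dbdb by limma, where 6 had an unadjusted p under 0.05 (15.4%, against 17.5% of all genes), and 4 were called in dbR against control (10.3%, against 24.1%). Of 13 tested genes of the E2F and DREAM families, which include regulators of such genes, 3 were called in dbdb (23.1%). E2f3 was higher (1.48), and Rbbp4 (-0.39) and E2f5 (-0.20) were lower. The call of E2f3 was lost without control replicate 1 or 3 or dbdb replicate 2 (limma adjusted p up to 0.0870), and that of E2f5 under 8 of 20 alternatives. None of the 13 was called in dbR against dbdb, and none had an unadjusted p under 0.05 in the limma test.

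The list of cell cycle brakes, proteins that hold or slow the cycle, had 16 tested genes. Of these, 6 were called in dbdb against control (37.5%, against 26.4% of all genes, 13.1% higher), each higher and each held under every alternative run, with a median of 0.18 over the list. Cdkn1a (chr17:29090976-29100727, plus strand), which encodes the kinase inhibitor p21, measured 1.42, 1.52 and 1.07 FPKM in control, 3.46, 4.85 and 6.14 FPKM in dbdb, and 1.93, 1.82 and 2.04 FPKM in dbR. The dbdb libraries were above all others, and dbR lay between them and control without overlap. Cdkn1a was higher in dbdb than in control by 1.75 on the log2 scale (limma adjusted p = 0.000228) and lower in dbR than in dbdb (log2 fold change -1.24, limma adjusted p = 0.0295). The second call was lost under 8 of 20 alternatives, among them leaving out any 1 dbR library or dbdb replicate 2, with adjusted p up to 0.149. Cdkn1c (0.94), which encodes the related inhibitor p57, Btg2 (0.86), an antiproliferative gene induced by p53, and Wee1 (0.61), the kinase that restrains Cdk1, were the next. No other brake was called in dbR against dbdb. In dbR against control 6 were called (37.5%, against 24.1% of all genes), 4 higher (Cdkn1c, Btg2, Btg1 and Wee1) and 2 lower (Ccng2 and Ccng1), and those of Cdkn1c and Btg1 held under each alternative run. The calls of Ccng1 and Wee1 were lost under 15 and 11 of 20 alternatives, and leaving out 1 library gave 2 to 7 calls, fewest without dbR replicate 2. There were 3 calls without control replicate 3, dbR replicate 1 or dbR replicate 3, and 4 without control replicate 1 or 2.

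Whole cortex mixes many cell types, and fewer cells of a type cannot be told apart from less RNA per cell. The summed level of 4 endothelial markers ranged over 90.0 to 98.7 FPKM in control, 63.3 to 69.1 FPKM in dbdb and 90.3 to 107.6 FPKM in dbR. All 4 were called lower in dbdb against control (13.4% of all genes), and 2 (Kdr and Emcn) higher in dbR against dbdb (0.564% of all genes). The 5 macrophage markers summed to 39.4 to 48.8, 18.9 to 28.2 and 25.5 to 32.8 FPKM in the 3 groups, and 4 of the 5 were called lower in dbdb. Markers of T cells summed to at most 2.44 FPKM and those of B cells to at most 1.04 FPKM, both highest in control. Of the 2 B cell markers tested, Cd79a was called lower in dbdb against control (log2 fold change -1.82, limma adjusted p = 0.00956). Of the 3 T cell markers tested, none was called there by limma, 2 had an unadjusted p under 0.05, and Cd2 was called lower in dbR against control (log2 fold change -1.61, limma adjusted p = 0.0126). The 3 adipocyte markers summed to 0.188 to 0.756 FPKM in control, 0 to 0.0757 FPKM in dbdb and 0.0658 to 0.671 FPKM in dbR, and the 4 erythroid markers to 3.25 to 35.6, 2.21 to 8.27 and 4.34 to 6.89 FPKM. None of either list was called by limma in dbdb against control, where 2 adipocyte and 0 erythroid markers had an unadjusted p under 0.05, and the median log2 fold changes of the 2 and 3 genes tested were -1.39 and -1.40. In dbR against dbdb the medians were 0.84 and 0.58, with none called and none at an unadjusted p under 0.05 by limma. The 2 markers of the distal convoluted tubule summed to 153.7 to 173.0 FPKM in control, 281.4 to 307.6 FPKM in dbdb and 315.4 to 354.5 FPKM in dbR, and both were called higher in dbdb (13.1% of all genes). Markers of the collecting duct (81.8 to 101.9 FPKM in control and 116.9 to 203.3 FPKM in dbdb) and of podocytes (60.8 to 70.2 FPKM and 72.9 to 76.6 FPKM) each had 2 of 3 called higher in dbdb. Among the collecting duct markers, Atp6v1g3 was also called higher in dbR against dbdb (log2 fold change 0.52, limma adjusted p = 0.0251). The 3 fibroblast and mesangial markers summed to 11.3 to 13.7, 10.7 to 13.9 and 18.1 to 21.9 FPKM in the 3 groups. None of these 3 was called by limma in dbdb against control, where each had an unadjusted p under 0.05 but in different directions (log2 fold change 0.47 for Pdgfra, -0.28 for Pdgfrb and -0.80 for Col1a1), and Pdgfrb was called higher in dbR against dbdb. The summed level of 5 proximal tubule markers overlapped between the groups, at 2286 to 2556, 2303 to 2895 and 2483 to 2654 FPKM. Of the 5, 2 had a positive and 3 a negative log2 fold change in dbdb against control, with a median of -0.040, and they ranged from -0.35 for Lrp2 (limma adjusted p = 0.0632) to 0.42 for Slc5a2, the 1 that was called (limma adjusted p = 0.0231). The 2 markers of the thick ascending limb summed to 319 to 420.1, 310.0 to 505.0 and 370.3 to 435.9 FPKM, and neither was called in dbdb against control. Of these 2, Slc12a1 was called higher in dbR against control (log2 fold change 0.47, limma adjusted p = 0.0315), as were 12.3% of all genes. The part of these cell types in the members' levels was not tested.

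**Figure D5:**
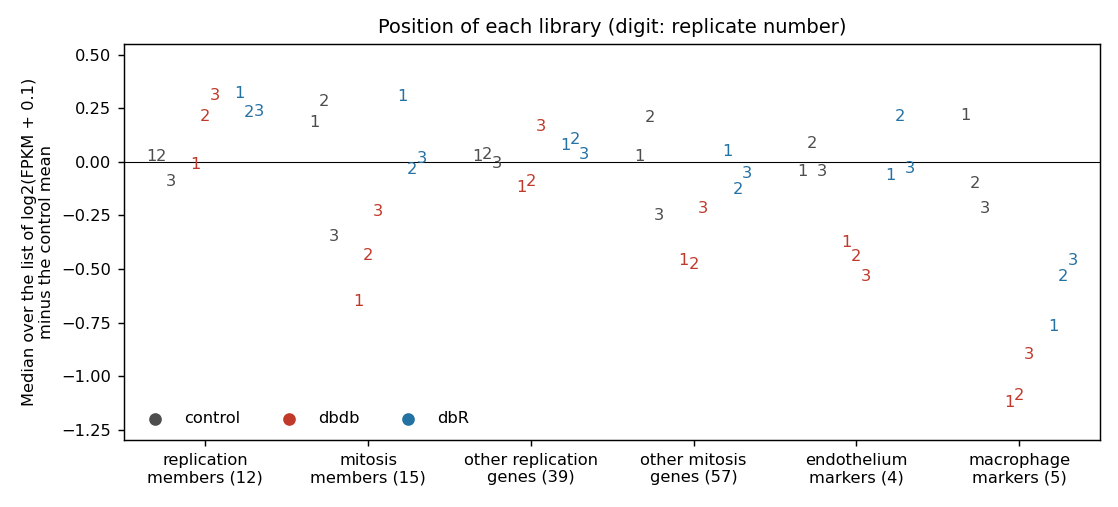
Median over each list of log2(FPKM + 0.1) minus the control mean, for each library (digits are replicate numbers; grey control, red dbdb, blue dbR). The mitosis members place the dbdb libraries at -0.65 to -0.23, with control replicate 3 at -0.35, and the endothelial markers place the dbdb libraries at -0.54 to -0.38, apart from both other groups.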

How the data were processed

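Cortical RNA of the 9 mice was depleted of ribosomal RNA and sequenced as strand-specific libraries. According to the submitters' processing notes, reads were aligned with TopHat2 2.0.9 to GRCm38.p2 and transcripts were quantified with Cufflinks 2.1.1. The authors deposited FPKM values per transcript, already divided by transcript length and mapped fragments. Where a gene has several transcripts, its value rests on the division of reads by Cufflinks. FPKM of 50660 mRNA transcripts was summed per gene. No counts were used, so limma 3.58.1 (R 4.3.3) with a variance trend was fitted to log2(FPKM + 0.1) in 1 model of the 9 libraries, with Benjamini-Hochberg adjustment over 14537 genes, those whose mean over the libraries reached 0.1 FPKM. Two-sided tests are used throughout. The script was tested on simulated data.

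All 36 members are named. Values per library are given for members called in any comparison, for the most abundant of each role and for Mki67, Top2a, Ccnb1, Cdk1, Pcna and Ccnd1, and at most the 4 called genes of largest change are given for each other list. Kif20b and Cdkn1a were given per library, and Spc24, Cdc25b, Nek2, Cks2, Btg1, Ccng1, Ccng2 and single marker genes were named, after their values were seen. The members and lists were chosen with earlier results of these data known. 1 of 61 other mitosis genes, Sgo2a, was not matched. Same-numbered libraries of different groups did not deviate together (correlation over genes -0.17 to 0.062), so numbers were not taken as pairs. Gene positions are those of GENCODE on GRCm38, and promoter sequences are those of RefSeq on GRCm38.p6. Alternatives changed the pseudocount, filter, scaling, transcript choice, libraries in the fit and variance model. The lncRNA tables were not used here.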

Additional observations from a re-analysis of the deposited data

How the results depend on the processing

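Of 2130 values of single members under the alternatives, 2076 kept their side of the threshold, 93 of which were uncalled values that changed sign, 36 lost and 18 gained a call, and no called value reversed. Leaving out each library gave 7 to 11 called members in dbdb against control (median -0.24 to -0.078), 0 in dbR against dbdb (median 0.13 to 0.26) and 2 to 5 in dbR against control (median -0.00059 to 0.18). With a filter at a mean of 1 FPKM, 26 members were tested, the median in dbdb against control was 0.047 and 2 were called in dbR against dbdb. With 75th percentile scaling and with quantile normalization 2 were also called there, and with mitochondrial transcripts left out 1. Quantile normalization gave a median of 0.0057 in dbR against control. Leaving out mitochondrial transcripts and scaling to the same sum moved the median of all genes in dbdb against control to 0.15 and its calls from 1899 higher and 1941 lower to 3489 higher and 967 lower. Members called were then 4 higher and 2 lower in place of 3 higher and 6 lower. Cdk4, Mcm6, Mcm7 and Kif11 lost and Cdt1 gained the call. In dbR against control they were 3 higher and 0 lower in place of 2 and 2. With the replicate number as a block, 7, 0 and 4 members were called in the 3 comparisons, and the pairing of numbers is a label only. Over all genes, dbR against dbdb gave 108 calls, against 31 with no filter, 166 at a mean of 1 FPKM, 203 with 75th percentile scaling, 234 with quantile normalization, 49 with the highest transcript of each gene, 22 in a fit to 6 libraries, 18 with no variance trend, 23 with the replicate block, and 2 to 141 with a library left out. The lowest was without dbR replicate 2. The absence of called members in dbR against dbdb therefore rests on a comparison in which few genes passed. FPKM gives no fragment counts for genes with several transcripts, and values of mitosis genes below 1 FPKM rest on few fragments.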
